A study of Homo sapiens with 42 samples.

Results

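The 9 genes described here encode proteins of the MHC class I antigen presentation pathway: the heavy chains HLA-B, HLA-C and HLA-E, the light chain B2M, the peptide transporter subunits TAP1 and TAP2, the loading chaperone TAPBP, and the immunoproteasome subunits PSMB8 and PSMB9. They were chosen by name and not by a rule on their values, out of 28266 gene symbols in the count table, though earlier results of these data were known. All 9 passed the filter on low counts in every comparison. Transcripts were measured by poly(A) RNA-seq in 42 libraries of IMR90, a human lung fibroblast cell line, in which senescence was induced in 2 ways and the coatomer subunit COPB2 was knocked down in the last days of culture. In oncogene-induced senescence (OIS), IMR90 cells carrying an ER:RAS fusion introduced by retroviral infection received 100 nM 4-hydroxytamoxifen (4OHT), which activates the fusion, or DMSO. In the second model, IMR90 cells without the fusion received 50 µg/ml bleomycin, a DNA-damaging drug, for 24 h, or DMSO. In every group the cells were cultured for 7 days and then given 1 µg/ml doxycycline for 72 h to switch on a control shRNA or 1 of 2 COPB2 shRNAs from a Tet-ON vector, so the control groups also carried a vector and received doxycycline, and RNA was taken on day 10. The 12 groups held 3 libraries each for ER:RAS and 4 each for IMR90. The labels do not say whether replicates were separate cultures. The study's legend for its gene set plots of COPB2 knockdown in senescent cells gives n = 3 and calls these independent experiments. It gives n = 3 for bleomycin too, where the groups here held 4 libraries, so it does not match the IMR90 groups. The p-values measure the spread between these libraries.

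MHC class I molecules carry peptides from inside the cell to its surface, where CD8 T cells and natural killer cells read them. Proteasomes cut proteins into peptides, TAP1 and TAP2 pump the peptides into the endoplasmic reticulum, and TAPBP (tapasin) holds the empty heavy chain and B2M beside the pump until a peptide is bound. Interferons are known to raise the whole pathway in most cells, including the replacement of constitutive proteasome subunits by PSMB8 and PSMB9, through factors such as IRF1 and NLRC5.

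Of the members, 8 lie in the MHC region of chromosome 6 and B2M lies on chromosome 15. In RefSeq coordinates of GRCh38.p14, TAP1 (chr6:32845209-32853704, minus strand) and PSMB9 (chr6:32854192-32859851, plus strand) are read away from each other, and their start sites lie 487 bases apart. PSMB8 (chr6:32840717-32844679) and TAP2 (chr6:32821831-32838739) follow on the minus strand, and TAPBP (chr6:33299694-33314078), HLA-B (chr6:31353875-31357179) and HLA-C (chr6:31268749-31272092) are on the minus strand too. HLA-E (chr6:30489509-30494194) and B2M (chr15:44711517-44718145) are on the plus strand. The 250 bases before the start site are printed for TAP1 and PSMB9, whose levels moved in opposite directions in senescence although their starts are neighbours, and for B2M and HLA-B, the partner chains whose levels fell with bleomycin. The capitals mark matches, on either strand, to the interferon-stimulated response element (ISRE, TTTCNNTTTC), the gamma-activated site (GAS, TTCNNNGAA), the NF-kB motif, the CRE core (TGACG) and the CCAAT box.
TAP1, chr6:32853705-32853954, minus strand: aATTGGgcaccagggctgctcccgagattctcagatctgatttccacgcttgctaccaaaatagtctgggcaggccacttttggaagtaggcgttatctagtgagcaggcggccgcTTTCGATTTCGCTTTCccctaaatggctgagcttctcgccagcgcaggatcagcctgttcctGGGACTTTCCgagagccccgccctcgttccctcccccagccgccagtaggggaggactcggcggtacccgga
PSMB9, chr6:32853942-32854191, plus strand: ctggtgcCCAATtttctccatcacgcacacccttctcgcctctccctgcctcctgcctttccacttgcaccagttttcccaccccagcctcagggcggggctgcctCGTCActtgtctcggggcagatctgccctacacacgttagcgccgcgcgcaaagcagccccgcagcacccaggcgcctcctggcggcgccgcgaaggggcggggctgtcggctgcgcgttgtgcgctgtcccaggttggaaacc
B2M, chr15:44711267-44711516, plus strand: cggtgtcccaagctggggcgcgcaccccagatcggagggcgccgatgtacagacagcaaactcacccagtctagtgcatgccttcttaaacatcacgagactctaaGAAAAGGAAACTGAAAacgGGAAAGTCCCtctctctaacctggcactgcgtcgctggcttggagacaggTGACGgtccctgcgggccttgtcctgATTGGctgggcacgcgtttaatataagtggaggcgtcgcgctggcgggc
HLA-B, chr6:31357180-31357429, minus strand: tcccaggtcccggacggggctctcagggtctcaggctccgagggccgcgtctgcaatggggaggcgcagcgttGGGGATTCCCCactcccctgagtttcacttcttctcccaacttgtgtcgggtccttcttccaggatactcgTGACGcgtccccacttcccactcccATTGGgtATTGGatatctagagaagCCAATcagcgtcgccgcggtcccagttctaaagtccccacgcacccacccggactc

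The TAP1 window held a pair of overlapping ISRE matches starting 134 and 128 bases before the start site, and an NF-kB match 72 bases before it. The PSMB9 window held a CRE core and a CCAAT box but no match to the ISRE, GAS or NF-kB motif, which says only that these letters are not in this window. The B2M window held overlapping ISRE matches at 144 and 138 bases before the start site, directly followed by an NF-kB match, and the HLA-B window held an NF-kB match and a CRE core. Among 35116 windows of the same length in the RefSeq table, 3.02% held an ISRE match, 6.57% a GAS match, 9.96% an NF-kB match, 21.2% a CRE core and 32% a CCAAT box. A match describes letters and is no evidence of binding. Of the 9 members, 8 had a window in the table, and HLA-E had none.

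The libraries held 13148194 to 23597310 counts, so a count of 3, taken as the lowest level that could be read, was worth 0.127 to 0.228 CPM, a scale on which every library is brought to a common total. HRAS, of the RAS oncogene family, had 47753 to 75170 counts in ER:RAS libraries and 461 to 2656 in IMR90 libraries. COPB2 fell with both shRNAs in all 4 backgrounds, by 2.11 to 2.93 on the log2 scale (highest adjusted p = 0.00471). Summed markers of fibroblasts stood at 7990 to 27563 CPM in every library, while those of immune cells summed to 0.35 to 4.20 CPM. Among ER:RAS 4OHT control libraries, replicate 1 stood apart: its summed interferon-response genes reached 371 CPM against 182 and 152, and its CXCL8 was 2760 CPM against 9410 and 8825. In IMR90 bleomycin cells replicate 4 stood apart with each shRNA, with CXCL8 at 1146, 8651 and 4269 CPM against 37 to 220 CPM in the other bleomycin libraries. Values of the members without these libraries are given where they changed a call or a direction.

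The members together took 0.175% to 0.307% of the counts of a library. B2M was highest in counts, with 9420 to 28395 per library, and PSMB9 was lowest, with 67 to 532. Levels of different genes were compared only per kilobase of transcript, on the CPM scale. In IMR90 DMSO control libraries (n = 4) the order was B2M (1182 ± 63.9 CPM per kb, SD), HLA-B (321 ± 71.0), HLA-C (171 ± 31.6), HLA-E (169 ± 43.0), TAPBP (46.4 ± 9.87), PSMB8 (43.5 ± 11.6), TAP1 (18.8 ± 6.62), PSMB9 (15.2 ± 4.65) and TAP2 (5.51 ± 0.502). HLA-C and HLA-E, TAPBP and PSMB8, and TAP1 and PSMB9 overlapped between neighbours in that order, and the other neighbours did not. With bleomycin (n = 4) TAP1 stood at 40.4 ± 5.46 CPM per kb, above the mean of PSMB8, and PSMB9 at 6.20 ± 1.12 was below the mean of TAP2, though both pairs overlapped. The heavy chains differ between people, so reads counted against 1 reference allele can be lost, and 35% of the 75-base windows of the TAP2 transcript are shared with another annotated gene, against 0% to 2.30% for the other members.

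**Figure D1:**
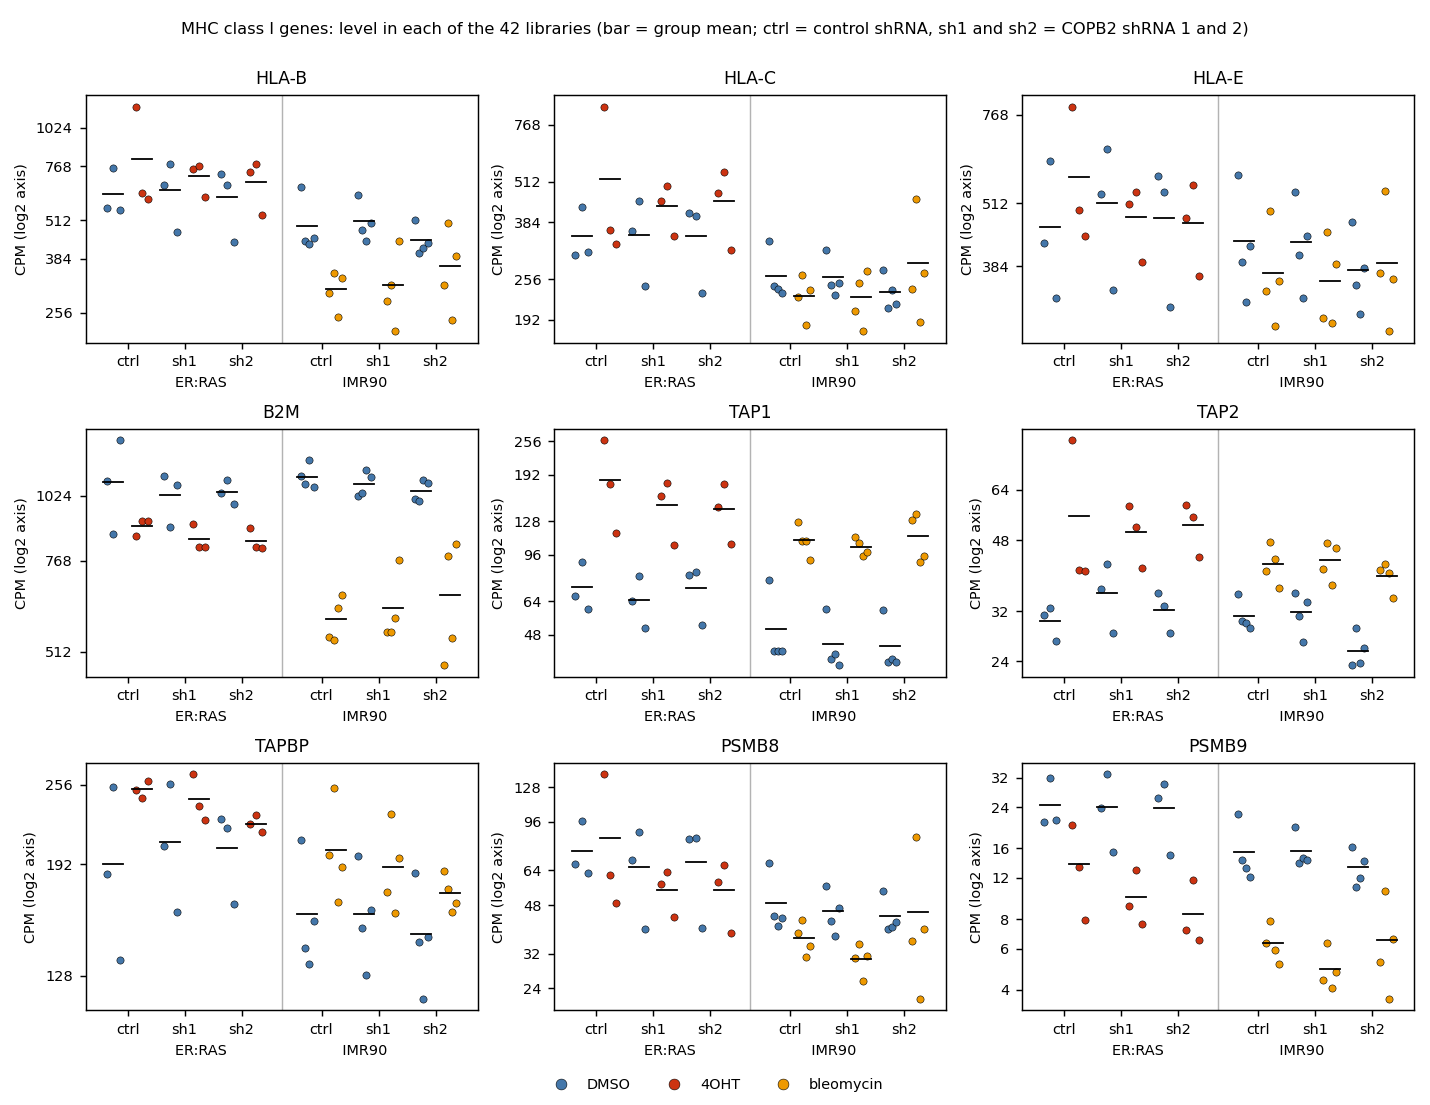
CPM of each of the 9 members in each of the 42 libraries (log axis), with 1 panel per gene, 1 point per library and a line at each group mean, for ER:RAS and IMR90 cells with DMSO or the senescence inducer and each shRNA. TAP1 sits higher in the senescent groups of both models, PSMB9 sits lower, and the 3 shRNA groups of each condition lie at like levels.

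The first comparison asked how the pathway's transcripts differed between cells in OIS and growing cells. With the control shRNA, 2 of the 9 members were called at an adjusted p under 0.05, both higher: the peptide transporter subunits TAP1 and TAP2. Of all 14297 genes tested, 35.7% were called, so the members' share was below the background of a strongly altered transcriptome. The median log2 fold change over the members was 0.27, and over all genes it was −0.08. The pathway did not move as a block: 7 members had positive and 2 had negative log2 fold changes, from −0.95 for PSMB9 to 1.24 for TAP1. Without 4OHT control replicate 1 the split was 4 positive and 5 negative, with a median of −0.04. With the replicate number fitted as a block, 4 members were called rather than 2.

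TAP1, which with TAP2 forms the peptide pump, stood at 67.2, 90.2 and 59.9 CPM in the ER:RAS DMSO control libraries and at 258, 177 and 116 CPM in the 4OHT control libraries. All 4OHT libraries lay above all DMSO libraries, a separation found in either direction for 38.5% of genes. The log2 fold change was 1.24 (SE 0.27, 2.36-fold, adjusted p = 0.00222), and it was 0.98 to 1.52 when each library was left out, past the threshold in 6 of 6 fits. TAP2 stood at 31.2, 32.6 and 27 CPM with DMSO and at 84.8, 40.4 and 40.3 CPM with 4OHT, again without overlap, though 1 library carried much of the mean. Its log2 fold change was 0.75 (SE 0.25, adjusted p = 0.0261) and dropped to 0.38 (adjusted p = 0.17) without 4OHT control replicate 1. It also missed the threshold without DMSO control replicate 1 (0.83, adjusted p = 0.0588) and without DMSO control replicate 3 (0.76, adjusted p = 0.0694).

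PSMB9, the immunoproteasome subunit that takes the place of PSMB6, stood at 20.7, 31.9 and 21.1 CPM with DMSO and at 20.04, 13.3 and 7.92 CPM with 4OHT. Every 4OHT library was below every DMSO library, by little in replicate 1. The log2 fold change of −0.95 (SE 0.36) just missed the threshold (adjusted p = 0.0502), and without 4OHT control replicate 1 it was −1.25 (adjusted p = 0.0244). PSMB8, which replaces PSMB5, was at 67.3, 96.7 and 62.5 CPM with DMSO and at 142, 61.4 and 48.8 CPM with 4OHT. Those groups overlapped, the log2 fold change was 0.05 (adjusted p = 0.945), and its sign turned without 4OHT control replicate 1 (−0.49, adjusted p = 0.33).

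The chains of the class I molecule itself did not pass the test in OIS. HLA-B, a classical heavy chain, was at 561, 757 and 554 CPM with DMSO and at 1200, 626 and 601 CPM with 4OHT, so the higher 4OHT mean rested on replicate 1. Its log2 fold change was 0.27 (SE 0.26, adjusted p = 0.461), and −0.06 without that library. HLA-C, the other classical chain measured, was at 305, 427 and 311 CPM with DMSO and at 875, 363 and 330 CPM with 4OHT, a log2 fold change of 0.48 (adjusted p = 0.289) that became −0.04 without the same library. HLA-E, a non-classical chain read mainly by natural killer cells, differed by 0.23 on the log2 scale (adjusted p = 0.571), and by 0.00 without that library as well. B2M, the chain shared by all class I molecules, was at 1096, 866 and 1310 CPM with DMSO and at 855, 916 and 917 CPM with 4OHT, a difference of −0.39 (log2, SE 0.18, adjusted p = 0.113). It passed without DMSO control replicate 2, at −0.50 (adjusted p = 0.0417). TAPBP, the bridge between pump and heavy chain, was at 185, 254 and 136 CPM with DMSO and at 251, 244 and 260 CPM with 4OHT, a log2 fold change of 0.31 (adjusted p = 0.248). It too passed without DMSO control replicate 2 (0.58, adjusted p = 0.0454).

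In OIS cells with either COPB2 shRNA, the same comparison gave 2 called members each, TAP1 higher and PSMB9 lower, against 36.9% of all genes in each case. TAP1 differed by 1.10 with shRNA 1 (adjusted p = 0.00475) and by 0.91 with shRNA 2 (adjusted p = 0.015). With shRNA 2 it missed the threshold without 4OHT replicate 2 (0.80, adjusted p = 0.0721) and without DMSO replicate 3 (0.79, adjusted p = 0.0681). PSMB9 fell from 23.7, 33.1 and 15.4 to 9.14, 12.9 and 7.64 CPM with shRNA 1, and from 26.3, 30.2 and 15 to 7.17, 11.7 and 6.49 CPM with shRNA 2. Neither set of groups overlapped, a separation seen for 46.5% and 46.2% of genes. On the log2 scale PSMB9 fell by 1.35 with shRNA 1 (SE 0.36, adjusted p = 0.0075) and by 1.56 with shRNA 2 (SE 0.36, adjusted p = 0.00301). With shRNA 1 it missed the threshold without DMSO replicate 2 (−1.01, adjusted p = 0.0627) or 4OHT replicate 3 (−1.18, adjusted p = 0.0521).

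The second comparison put bleomycin-induced senescence against growing IMR90 cells. With the control shRNA, 5 of the 9 members were called, TAP1 and TAP2 higher and HLA-B, B2M and PSMB9 lower, where 31.2% of 14783 genes were called. The median over the members was −0.24 and over all genes −0.01 on the log2 scale. The same 5 members had groups that did not overlap, a separation seen for 28% of genes. Without replicate 4 of every IMR90 group, 3 members were called, since HLA-B (−0.76, adjusted p = 0.0601) and TAP2 (0.46, adjusted p = 0.0638) then missed the threshold.

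B2M stood at 1116, 1081, 1199 and 1063 CPM with DMSO and at 548, 540, 622 and 660 CPM with bleomycin. The groups were far apart and narrow, and the log2 fold change of −0.94 (SE 0.15, 0.52-fold, adjusted p = 6.61e-05) was past the threshold in 8 of 8 fits that left out a library. HLA-B stood at 656, 437, 429 and 448 CPM with DMSO and at 296, 345, 249 and 332 CPM with bleomycin. Each bleomycin library was lower than each DMSO library, and the log2 fold change was −0.71 (SE 0.22, 0.609-fold, adjusted p = 0.0154). It missed the threshold without DMSO control replicate 1 (−0.54, adjusted p = 0.0761), which was highest, and without bleomycin control replicate 3 (−0.62, adjusted p = 0.0574), which was lowest. HLA-C (336, 245, 238 and 233 CPM against 225, 263, 185 and 237 CPM) and HLA-E (584, 390, 326 and 422 CPM against 342, 495, 291 and 359 CPM) overlapped between the groups. Their log2 fold changes were −0.23 (adjusted p = 0.442) and −0.24 (adjusted p = 0.469).

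TAP1 stood at 77.2, 41.7, 41.5 and 41.8 CPM with DMSO and at 127, 108, 108 and 91.4 CPM with bleomycin. DMSO replicate 1 was far above its group and still below every bleomycin library. The log2 fold change was 1.08 (SE 0.22, 2.11-fold, adjusted p = 0.000549). TAP2 moved less, from 35.3, 30.2, 29.9 and 29 CPM to 40.2, 47.4, 43.1 and 36.5 CPM, a difference of 0.40 (log2, SE 0.13, adjusted p = 0.0239). It missed the threshold without bleomycin control replicate 2 (0.33, adjusted p = 0.0847) and without DMSO control replicate 4 (0.37, adjusted p = 0.0678). TAPBP, at 209, 142, 134 and 156 CPM with DMSO and 198, 253, 167 and 190 CPM with bleomycin, overlapped between the groups (0.31, adjusted p = 0.214).

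PSMB9 stood at 22.4, 14.2, 13.2 and 12.1 CPM with DMSO and at 6.32, 7.86, 5.92 and 5.13 CPM with bleomycin, again with no overlap. Its log2 fold change of −1.318 (SE 0.26, 0.401-fold, adjusted p = 0.000464) was past the threshold in 8 of 8 fits that left out a library. PSMB8 stood at 68.3, 43.9, 40.3 and 43.2 CPM with DMSO and at 38.2, 42.4, 31.2 and 34.1 CPM with bleomycin, where 1 bleomycin library overlapped the DMSO range, and its log2 fold change was −0.45 (SE 0.27, adjusted p = 0.23). These are bulk libraries, in which fewer cells with a transcript and less of it per cell cannot be told apart.

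With COPB2 shRNA 1, the bleomycin comparison called 5 members against 35.2% of all genes, the same 5 in the same directions, with B2M at −0.83 (adjusted p = 0.00019), HLA-B at −0.72 (adjusted p = 0.0126), TAP1 at 1.19 (adjusted p = 0.000186), TAP2 at 0.40 (adjusted p = 0.0207) and PSMB9 at −1.70 (adjusted p = 3.08e-05). Here HLA-B missed the threshold without bleomycin replicate 3 (−0.58, adjusted p = 0.0542), and TAP2 without any of 4 libraries, DMSO replicates 2 and 3 and bleomycin replicates 2 and 4 (0.31 to 0.39). With COPB2 shRNA 2, 4 members were called against 40% of all genes: B2M at −0.71 (adjusted p = 0.000858), TAP1 at 1.33 (adjusted p = 5.32e-05), TAP2 at 0.58 (adjusted p = 0.00135) and PSMB9 at −1.09 (adjusted p = 0.00202). HLA-B was at −0.32 there (adjusted p = 0.249), with bleomycin libraries at 316, 501, 242 and 392 CPM and DMSO libraries at 512, 402, 417 and 432 CPM. Replicate 2 of that bleomycin group was highest for 7 of the 9 members, and its interferon-response genes summed to 392 CPM against 160 to 220 CPM. With shRNA 2, 6 members were positive and 3 negative (median log2 0.00). Without that library 3 were positive and 6 negative (median −0.17), and 4 were still called.

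**Figure D2:**
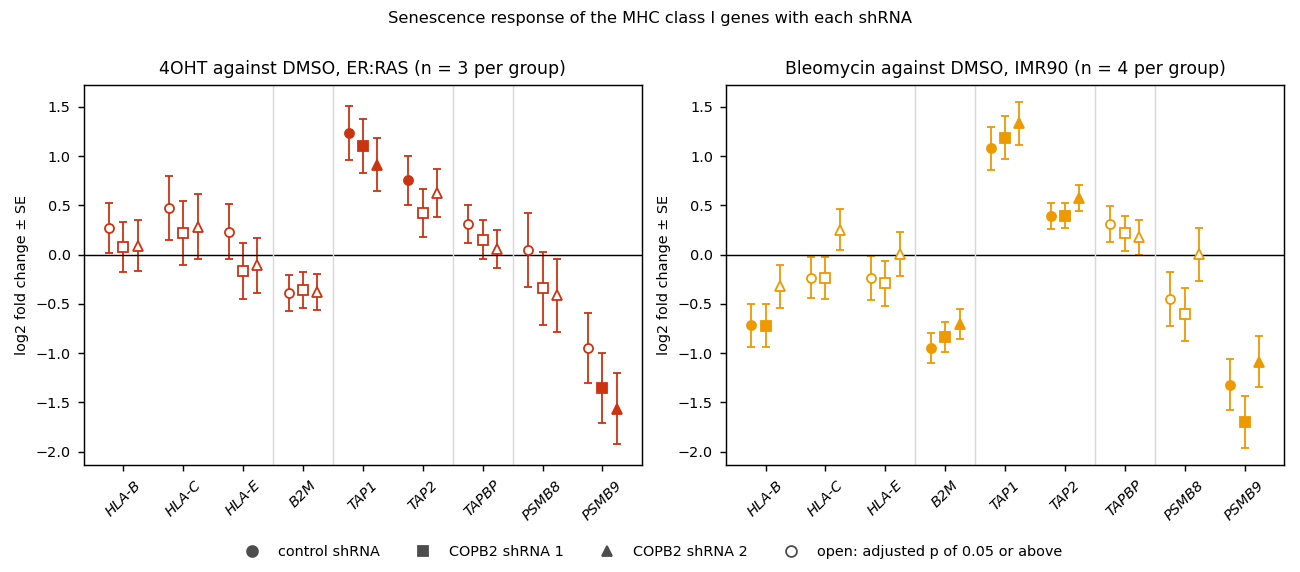
Log2 fold change of each member in senescent against DMSO cells, for OIS and for bleomycin and for each of the 3 shRNAs. Bars reach the standard error (SE) on either side, which is narrower than a 95% interval, and filled points mark adjusted p under 0.05. TAP1 is positive and filled in all 6 comparisons, PSMB9 is negative in all 6 and filled in 5, and B2M is filled in the 3 bleomycin comparisons alone.

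The models were then set against each other by testing the difference of their responses in control shRNA libraries. Over all 15299 genes 20.3% differed, and 2 of the 9 members did, HLA-B and B2M. The OIS response minus the bleomycin response was 1.06 for HLA-B on the log2 scale (SE 0.36, adjusted p = 0.0323) and 0.63 for B2M (SE 0.22, adjusted p = 0.0414). All 9 differences were positive, with a median of 0.54 against −0.03 over all genes. Without ER:RAS 4OHT control replicate 1, 6 were positive and 3 negative, with a median of 0.09. Both calls were close to the threshold: HLA-B kept its call in 9 of 14 fits that left out a library and was lowest without ER:RAS 4OHT control replicate 1 (0.67, adjusted p = 0.2), and B2M kept its call in 5 of 14 (0.49 to 0.78). The other libraries without which HLA-B missed the threshold were ER:RAS DMSO control replicates 1 and 3, IMR90 DMSO control replicate 1 and IMR90 bleomycin control replicate 3 (0.89 to 0.99). B2M was lowest without ER:RAS DMSO control replicate 2 (0.49, adjusted p = 0.135). For the transporter and the immunoproteasome no difference between models was detected: it was 0.24 for TAP1 (SE 0.37, adjusted p = 0.743) and 0.45 for PSMB9. In DMSO cells, ER:RAS and IMR90 differed in 0 of 9 members by edgeR and by DESeq2, where 0.346% of all genes were called. PSMB9 alone had an unadjusted p under 0.05 there, as did 11.5% of genes.

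TAP1 and PSMB9, the neighbours with start sites on opposite strands, moved apart. In raw counts, which no scaling between libraries touches, TAP1 exceeded PSMB9 by 2.40 to 3.64 times in the 21 DMSO libraries and by 12.8 to 25.2 times in the 21 senescent libraries. No senescent library came near the DMSO range, in either model or with any shRNA. This ratio was chosen after the values had been seen and was not tested. The study's methods name a first-strand setting for the alignment, while strand use in the counting is not given in the sources used here. The annotation lists transcripts of PSMB9 and PSMB8-AS1 on the other strand across TAP1 and PSMB8, and without strand such reads could not be told apart.

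**Figure D3:**
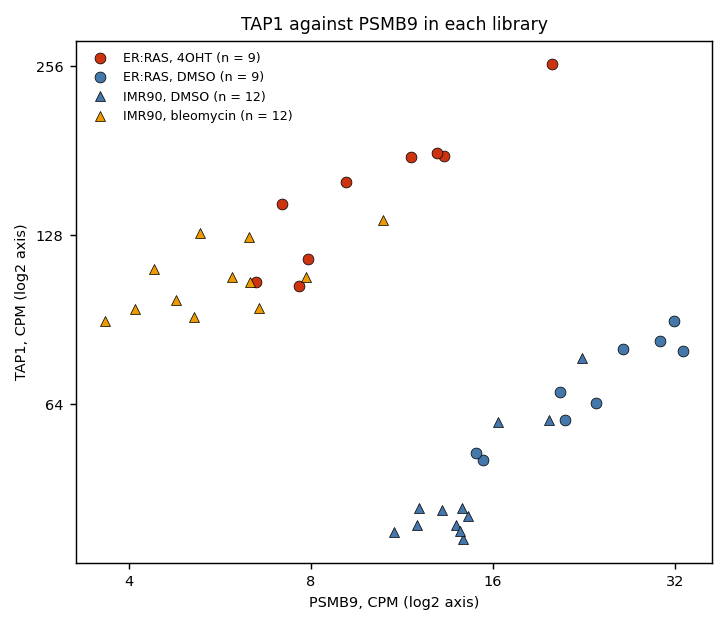
TAP1 against PSMB9 in CPM (both axes log), 1 point per library, coloured by cell line and treatment. The 21 senescent libraries lie in a band of higher TAP1 for their PSMB9, at 12.8 to 25.2 TAP1 counts per PSMB9 count, apart from the 21 DMSO libraries at 2.40 to 3.64.

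Ratios of counts within a library were used to ask whether partner subunits kept their proportions. Each of 8 ratios was compared between senescent and DMSO libraries of a model across the 3 shRNAs, by a two-sided exact permutation test within shRNA groups, adjusted over 16 tests. The test took libraries with different shRNAs as separate units, though same-numbered ones often deviated alike. The independent units may therefore be fewer, and these p-values too small. With control shRNA libraries alone no ratio passed (exact permutation test, lowest adjusted p = 0.0762), where few permutations exist. PSMB8 fell against PSMB5, the constitutive subunit whose place it takes, from a mean log2 ratio of −2.05 ± 0.15 (SD, n = 9) to −3.21 ± 0.21 (n = 9) in OIS and from −1.98 ± 0.17 (n = 12) to −2.89 ± 0.16 (n = 12) with bleomycin. PSMB9 fell against PSMB6 from −2.64 ± 0.14 to −4.52 ± 0.34 in OIS and from −2.61 ± 0.17 to −4.45 ± 0.29 with bleomycin. In each of these 4 comparisons the senescent and DMSO libraries did not overlap, the change was 0.446-fold, 0.533-fold, 0.272-fold and 0.280-fold in that order, and p was the smallest these permutations can give (exact permutation p = 0.00025 for OIS, 5.83e-06 for bleomycin, adjusted p = 0.0004 and 1.87e-05). The last immunoproteasome subunit, PSMB10, changed 0.706-fold against PSMB7 in OIS (exact permutation test, adjusted p = 0.00767, ranges overlapping) and 0.681-fold with bleomycin (adjusted p = 1.87e-05, no overlap).

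In OIS with the control shRNA, the constitutive subunits PSMB5 and PSMB7 rose by 1.10 and 0.93 on the log2 scale, while PSMB6 was at 0.74 (adjusted p = 0.14). None of their counterparts passed that test, with PSMB8 at 0.05, PSMB9 at −0.95 and PSMB10 at 0.75 (adjusted p = 0.217). Without 4OHT control replicate 1, PSMB5 was at 0.58 and PSMB10 at −0.013, and PSMB5 and PSMB7 each kept the call in 3 of 6 fits that left out a library. With bleomycin PSMB5, PSMB6 and PSMB7 were at 0.35, 0.33 and 0.41, and none passed the test.

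Within the transporter, TAP1 rose against TAP2 by 0.49 in OIS (exact permutation test, adjusted p = 0.00145) and by 0.76 with bleomycin (adjusted p = 4.66e-05). TAPBP fell against TAP1 in both models, 0.546-fold and 0.507-fold, without overlap between senescent and DMSO libraries. Both classical heavy chains rose against B2M: HLA-B 1.42-fold in OIS (exact permutation test, adjusted p = 0.0209) and 1.18-fold with bleomycin (adjusted p = 0.0479), and HLA-C 1.59-fold (adjusted p = 0.0138) and 1.68-fold (adjusted p = 5.33e-05). HLA-E rose against HLA-B with bleomycin, 1.35-fold, and was at 0.911-fold in OIS, which missed the threshold (exact permutation test, adjusted p = 0.0517).

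**Figure D4:**
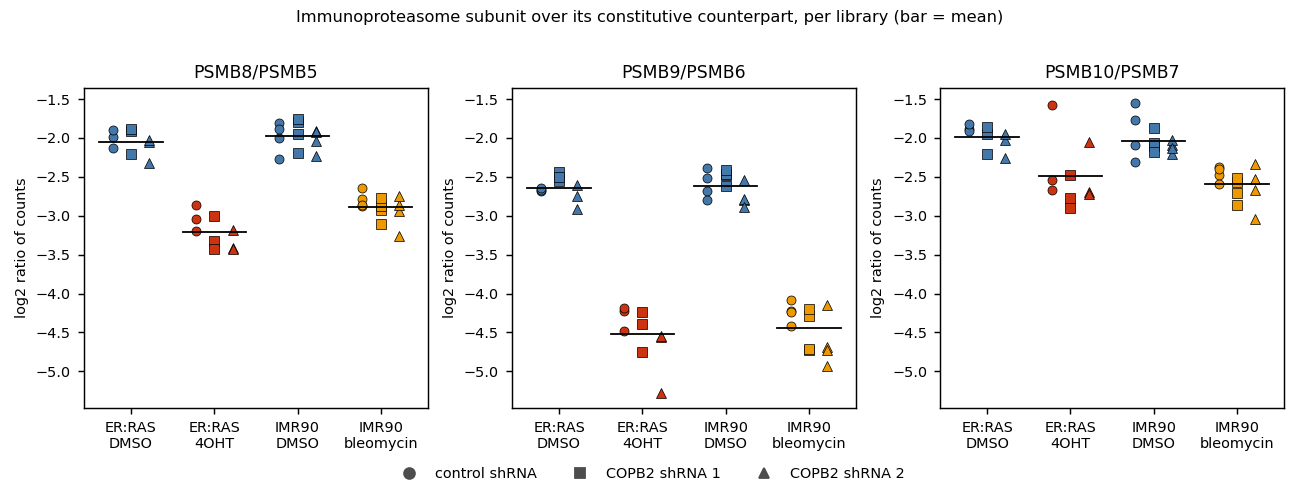
Log2 ratio of each immunoproteasome subunit to the constitutive subunit it replaces (PSMB8 to PSMB5, PSMB9 to PSMB6, PSMB10 to PSMB7), 1 point per library, for each model, treatment and shRNA. The first and second ratio are lower in every senescent library than in every DMSO library of the same model, and the ratio of PSMB10 to PSMB7 is lower on average with some overlap in OIS.

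COPB2 encodes the β′ subunit of the COPI coat, which carries proteins between Golgi and endoplasmic reticulum. Its knockdown changed 0 of the 9 members in all 8 comparisons with control shRNA, by edgeR and by DESeq2, and 0 members had an unadjusted p under 0.05 in any of them. The background was low as well: 0.00699% of genes were called in ER:RAS DMSO cells with each shRNA, 0.14% and 0.224% in ER:RAS 4OHT cells, 0.00676% in IMR90 DMSO cells with each, and 0.00676% and 0.0744% in IMR90 bleomycin cells. At an unadjusted p under 0.05 stood 0.811% and 0.93%, 3.23% and 4.48%, 1.12% and 1.12%, and 1.41% and 6.74% of genes, in that order. The 95% intervals of the members' log2 fold changes reached from −1.02 to 0.72 in ER:RAS DMSO cells, from −1.47 to 0.46 in ER:RAS 4OHT cells, from −0.72 to 0.55 in IMR90 DMSO cells and from −0.89 to 0.87 in IMR90 bleomycin cells, which are the outermost limits over the 9 members. A value that was not called does not show that a gene was unaffected.

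In ER:RAS 4OHT cells all 9 point estimates were below 0 with either shRNA, in comparisons that share their control libraries. PSMB8 was at −0.62 and −0.64 and PSMB9 at −0.47 and −0.71. Without 4OHT control replicate 1, 5 of 9 were below 0 with shRNA 1 (−0.13 to 0.30) and 6 of 9 with shRNA 2 (−0.34 to 0.35), so the common sign rested on that library. A common sign was not particular to these cells. In IMR90 DMSO cells all 9 were below 0 with shRNA 2 (−0.27 to −0.07), and 4 of 9 with shRNA 1. Without IMR90 DMSO control replicate 1, 4 of 9 were below 0 with shRNA 2. The interaction of knockdown and senescence was called for 0 of 9 members with each shRNA in each model by edgeR and by DESeq2, where 0.0% of all genes were called. At an unadjusted p under 0.05 stood 0 members and 1.36% and 1.84% of genes in ER:RAS and 0.819% and 1.93% in IMR90.

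**Figure D5:**
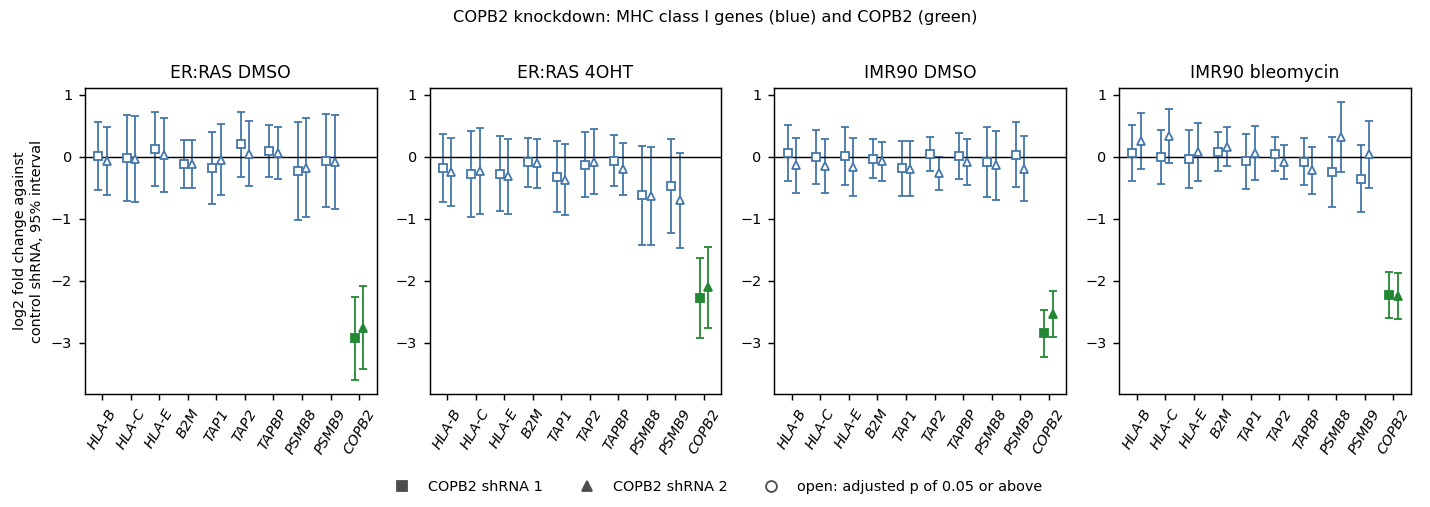
Log2 fold change of each member (blue) and of COPB2 (green) with COPB2 shRNA 1 or 2 against the control shRNA in each of 4 backgrounds, with bars for the 95% interval. Every interval of a member includes 0, and for each member the intervals are wider in ER:RAS cells, which have 3 libraries per group. COPB2 itself is negative and called with both shRNAs in each background.

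The genes around the pathway were read from lists of known parts, in control shRNA libraries. Of all genes, 15.5% rose and 20.2% fell in OIS, and 15.4% rose and 15.8% fell with bleomycin. Among 13 tested partners (proteasome activators, trimming peptidases, chaperones and class I-like molecules), 1 rose and 3 fell in OIS, close to those shares, with a median of −0.31. PSME2, a subunit of the proteasome activator that interferon induces, rose from 98.2 ± 12.4 to 215 ± 86.4 CPM (log2 1.02). MR1, the class I-like molecule that presents vitamin B metabolites, fell from 13.6 ± 2.21 to 1.74 ± 0.20 CPM (−3.05), and ERAP1, a peptidase that trims peptides in the endoplasmic reticulum, fell by 1.15 on the log2 scale. TAPBPL, a tapasin relative, fell by 1.09, a call kept in 2 of 6 fits that left out a library. With bleomycin 3 partners rose and 1 fell, with a median of 0.00. Those were the chaperone CANX (0.51), PSME2 (0.63) and CD1D, at least 3.59-fold higher than a DMSO group at or under 3 counts per library, and ERAP1 (−0.57).

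Of 14 constitutive proteasome subunits, 4 rose in OIS (PSMB5, PSMB7, PSMA6 and PSMA5), 0 fell and 10 did not pass, with a median of 0.68. PSMA6 and PSMA5 kept the call in 6 of 6 fits that left out a library. With bleomycin 1 of 14 rose, PSMA6 at 0.47, and the median was 0.31.

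Of 21 regulators of the class I genes and of interferon signalling, 5 fell in OIS with a median of −0.01, and 1 rose, the receptor chain IFNGR2 at 0.94. SOCS1, an inhibitor of cytokine receptor signalling that interferon itself induces, fell from 80.6 ± 24.5 to 16.8 ± 10.5 CPM (−2.37), RFXAP, a subunit of the RFX complex that binds MHC promoters, fell by 1.87, and IRF9 and STAT2, parts of the factor that binds the ISRE, fell by 1.50 and 1.41 on the log2 scale. With bleomycin 7 of 21 fell and 0 rose, with a median of −0.43, including SOCS1 (−2.44), SOCS3 (−1.65), STAT2 (−1.10) and NLRC5, the class I transactivator. NLRC5 fell from 18.02 ± 2.89 to 11.2 ± 1.38 CPM (−0.72, adjusted p = 0.0106), and in OIS it was at 16.4 ± 3.77 and 18.9 ± 2.16 CPM (0.12, adjusted p = 0.72). The difference between the models was past the threshold for NLRC5.

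Of 6 interferon genes in the list, 5 were at or under 3 counts in every library. IFNB1 and IFNG did not exceed 2 counts in any library, and IFNA1 had 0 counts in every library, which allows up to 0.127 to 0.228 CPM by counting error alone. The sixth, IFNE, an epithelial interferon, reached at most 16 counts, and in OIS it was at 0.177 ± 0.264 CPM with DMSO and 0.665 ± 0.305 CPM with 4OHT (log2 1.69, adjusted p = 0.153). Of 18 tested genes that interferon induces, 12 fell and 2 rose in OIS, with a median of −2.30, or −2.004 with genes near 0 taken at their bound. IFIT1, an antiviral RNA-binding protein, fell from 25.1 ± 5.00 to 0.408 ± 0.0676 CPM (−6.01), and IFI44L had 0 counts in every 4OHT control library, at least 3.97-fold lower than with DMSO. The chemokine CXCL10 went the other way, from 0.931 ± 0.705 to 44.1 ± 20.6 CPM (5.43), as did CXCL11, at least 18.3-fold higher.

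With bleomycin 8 of 19 such genes fell and 3 rose, with a median of −0.73. IFIT1 fell by 1.75 on the log2 scale, CXCL10 rose by 4.52, CXCL11 was at least 4.84-fold higher, and OASL rose by 2.28 from a level near the floor. OASL kept its call in 3 of 8 fits that left out a library. CXCL10 stood at 3.21, 1.49, 2.30 and 23.3 CPM in the bleomycin control libraries, so its mean rested largely on replicate 4, without which the log2 fold change was 2.85. CXCL11 lost its call without that library. Tested against each other, the OIS response was lower than the bleomycin response for 10 of 19 of these genes and higher for 0, where 12.1% and 8.14% of all genes were.

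The lists of class II genes and of ligands for natural killer and T cell receptors served as comparison with other surface molecules. Of the class II genes, CD74 (−3.92) and HLA-DMA (−3.25) fell in OIS, 2 of 4 tested, and with bleomycin CD74 fell (−1.09) and HLA-DMB rose (2.01, a call kept in 5 of 8 fits that left out a library), of 5 tested, at levels of at most 48.8 CPM summed over the list in any library. Of 11 tested ligands 6 rose in OIS and 0 fell, with a median of 0.67, and of 12 tested with bleomycin 8 rose and 0 fell, with a median of 1.26. MICA, a class I-like molecule that binds no peptide and engages the natural killer receptor NKG2D, rose from 35.4 ± 7.75 to 283 ± 107 CPM in OIS (2.89) and from 27.3 ± 8.70 to 106 ± 18.3 CPM with bleomycin (1.93). ULBP2, another NKG2D ligand, rose by 3.09 and 1.97, CD274 (PD-L1) by 3.21 in OIS, and PVR by 1.69 with bleomycin.

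Immune markers summed to 0.481 to 1.20 CPM in ER:RAS DMSO control libraries and to 1.39 to 2.17 CPM in the 4OHT ones, and to 0.369 to 1.17 and 2.18 to 2.87 CPM in the IMR90 pairs. Of the 8 listed, 2 passed the filter and were tested in each model, and 1 was called higher (CSF1R in OIS, PTPRC with bleomycin). Endothelial markers summed to 1.20 to 3.67 and 9.25 to 11.2 CPM in the ER:RAS pair, where 3 of the 4 listed were tested and all 3 were called higher. Epithelial markers, mostly KRT18, summed to 115 to 164 and 39.2 to 168 CPM in the ER:RAS pair and to 58.9 to 133 and 53.8 to 173 CPM in the IMR90 pair, with KRT19 called lower in OIS (−2.75) and CDH1 called higher with bleomycin. Of 9 fibroblast markers 6 fell in OIS and 7 with bleomycin, while VIM, which many cell types express, rose in OIS from 6730 ± 1476 to 15419 ± 4077 CPM (1.10). Their part in the members' results was not tested.

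The likeness of expression was measured as Pearson's r of mean log2 CPM over the 12 groups, against 15290 other genes, as a description. Among members, TAP1 and TAP2 were most alike (r = 0.94), then HLA-B and HLA-E (0.93) and B2M and PSMB9 (0.91), while B2M and TAP1 ran opposite (−0.62). The nearest gene outside the list was MAP2K3 for TAP1 (0.996), H2BC11 for TAP2 (0.984), PITPNA for TAPBP (0.983), TADA3 for PSMB8 (0.985), DENND2A for PSMB9 (0.992), GRASP for B2M (0.992), RPUSD4 for HLA-B (0.994), MAD2L2 for HLA-C (0.992) and FAM234A for HLA-E (0.975). The groups share libraries of 2 cell lines and 2 treatments, and with 15290 genes compared, high values of r are found for any profile.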

How the data were processed

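Per the labels, poly(A) libraries were made from 200 ng RNA with a directional kit and read single-end over 75 bases. The authors deposited 1 table of raw read counts for 28266 symbols in 42 libraries, and of these symbols 3476 have 0 counts throughout. The study's methods name Tophat (first-strand setting), HTSeq and hg19, while the submitters' processing notes name hg38, STAR 2.7.8a, DRAGEN and DESeq2 1.32.0, and strand use in counting is not given in the sources used here. The table's symbols are newer than the older annotation.

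Groups followed the labels. edgeR 4.0.16 in R 4.3.3 (filterByExpr, TMM, robust quasi-likelihood F-test) was fitted over the 18 ER:RAS libraries (14297 genes), the 24 IMR90 libraries (14783) and all 42 (15299). P-values were adjusted by Benjamini-Hochberg across every gene of a fit, and called means an adjusted p under 0.05. CPM are on the TMM scale of all 42 libraries, and intervals are 95%. Ratios within a library used counts plus 0.5 and two-sided exact permutation of treatment within shRNA groups (8000 and 343000 permutations). Alternatives were DESeq2 1.42.0, other scaling, filters, thresholds and libraries, and the replicate number as a block. The fits were tested on simulated data. Floors of 3 counts cover counting error only.

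All 9 members were named, and for each list the 4 called genes of largest change were to be named per comparison, with others named after their values were seen. The members, lists and tests were chosen with earlier results of these data known. Promoter windows are RefSeq on GRCh38.p14, and transcript lengths, overlaps and shared windows come from GENCODE on GRCh37.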

Additional observations from a re-analysis of the deposited data

Results flagged for a closer look

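In IMR90 groups of 4 libraries, 54 sets of member values were searched for a library far from the others (a gap over 0.829 of the group's range), and 8 were found, where chance alone gives about 1 in 20 sets. In IMR90 DMSO control cells replicate 1 was such a library for HLA-B (656 CPM against 429 to 448), HLA-C (336 CPM against 233 to 245), TAP1 (77.2 CPM against 41.5 to 41.8) and PSMB8 (68.3 CPM against 40.3 to 43.9). Replicate 1 was also apart in IMR90 DMSO cells with COPB2 shRNA 1 for TAP1 (59.9 CPM against 36.8 to 40.5) and PSMB9 (19.8 CPM against 13.9 to 14.6), and with COPB2 shRNA 2 for TAP1 (59.4 CPM against 37.8 to 39). Replicate 1 was highest for 8, 8 and 7 of the 9 members in these 3 groups. In IMR90 bleomycin cells with COPB2 shRNA 1, replicate 4 was apart for B2M (772 CPM against 559 to 594).

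The responses of the 2 models differed by test for HLA-B, by 1.06 on the log2 scale (OIS minus bleomycin, adjusted p = 0.0323), and for B2M, by 0.63 (adjusted p = 0.0414).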

How the results depend on the processing

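Of 575 single-gene values recomputed under another setting, 305 that left out a library and 214 others kept their direction and side of the threshold, 30 and 10 lost the call, 3 and 2 gained it, and 10 and 1 turned sign. The count of called members in OIS with the control shRNA was 2, and it was 4 with the replicate block, 1 when only the libraries compared were fitted and 1 for changes of at least 1 on the log2 scale. PSMB8 was at −0.022 with the block there. In OIS with COPB2 shRNA 2 the count was 4 with the block and 1 for changes of at least 1. With bleomycin the control count of 5 became 3 without replicate 4 in every IMR90 group and 2 for changes of at least 1, and the counts with COPB2 shRNA 1 and 2 also became 2 for such changes. The count that differed between models became 1 without a filter, 0 with only the libraries compared and 1 for changes of at least 1. ER:RAS against IMR90 in DMSO gave 3 with the block, but each block lay within a cell line. That fit compared levels at 1 replicate number of each line, so its count gives no cell line difference adjusted for replicate. Of 16 ratio tests, 15 were past the threshold, and 0 with control shRNA libraries alone, where the smallest exact p is 0.1 for OIS and 0.0286 for bleomycin before adjustment. Leaving out each library gave counts of 1 to 4 in OIS with the control shRNA, 1 to 2 with each COPB2 shRNA, 4 to 5 with bleomycin and the control or COPB2 shRNA 1, 4 to 4 with COPB2 shRNA 2, 0 to 2 between models and 14 to 16 for ratios, and 0 in each knockdown, interaction and cell line comparison. In OIS it gave −0.055 to 0.48 for HLA-B, −0.038 to 0.77 for HLA-C and −0.49 to 0.37 for PSMB8, and between models −0.083 to 0.49 for TAP1, −0.0062 to 0.62 for TAP2, −0.14 to 0.32 for TAPBP and −0.026 to 0.86 for PSMB8. The cause of these shifts was not tested. DESeq2 size factors moved the median of all genes in OIS with the control shRNA by 0.12, and no member changed sign. The labels do not say what a shared replicate number marks, and the main fits did not take the numbers as pairs. Deviations of same-numbered groups correlated above 0.1 in most pairs but not all, 15 of 21 in ER:RAS (−0.55 to 0.85) and 23 of 28 in IMR90 (−0.47 to 0.79). ER:RAS replicate 3 was lowest for 6, 8 and 9 of the 9 members in the DMSO groups and for 7, 8 and 9 in the 4OHT groups. Part of the spread therefore went with the replicate number, and the OIS counts depend on whether it is fitted. The block changed no other call count by over 1.5 times.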
